A study of Mus musculus with 469 samples.

Results

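The xenobiotic enzymes of the olfactory epithelium were taken as the genes whose symbols belong to cytochrome P450 families 1 to 4 (Cyp1, Cyp2, Cyp3 and Cyp4), to the UDP-glucuronosyltransferases (Ugt1a, Ugt2a and Ugt2b), to the cytosolic glutathione S-transferases of the alpha, mu, pi, theta and omega classes (Gsta, Gstm, Gstp, Gstt and Gsto), to the cytosolic sulfotransferases (Sult) and to the flavin-containing monooxygenases (Fmo), together with the carbonyl reductase Cbr2 and the glutathione peroxidase Gpx6. The rule used symbols and no measured value, and it chose 82 P450s, 7 monooxygenases, 18 glucuronosyltransferases, 18 sulfotransferases, 19 glutathione S-transferases, Cbr2 and Gpx6, together 0.627% of the 23281 genes. All but 19 were above 0 in at least 1 library. A mean of 5 CPM (a gene's share of a library's signal times 1000000) was reached in at least 1 of 6 groups by 45, and a mean of 50 by 25.

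These enzymes act on odorants and inhaled chemicals in sequence. Cytochrome P450s, flavin-containing monooxygenases and carbonyl reductases oxidise or reduce a compound in the first phase, and glucuronosyltransferases, sulfotransferases and glutathione S-transferases attach a polar group to it in the second. In the nose they are known from the sustentacular cells, the supporting cells that wrap the sensory neurons, and from Bowman's glands, and they are counted among the enzymes that clear odorants from the mucus. The same families make up the drug-metabolising system of the liver.

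Single-cell libraries of polyadenylated RNA had been made with the Fluidigm C1 system and Nextera XT from the olfactory epithelium of mice 8 weeks old. Cells sorted for Neurog1-eGFP, a reporter under Neurog1 that marks neuronal precursors, came from FVB Neurog1-eGFP mice and gave 46 libraries uninjured, 48 at 5 days and 25 at 14 days after olfactory bulbectomy, the removal of the olfactory bulb (61, 51 and 26 before a filter on the number of genes). Mature olfactory sensory neurons, sorted by the reporter OMP-eGFP, came from B6 OMP-eGFP mice and gave 29 libraries (of 89) from epithelium engrafted by transplantation and 42 (of 50) at 14 days after bulbectomy. The unsorted reference came from uninjured B6;129SF1/J (F1) wildtype mice in 2 runs, with 70 libraries in run 2 and 68 in run 1 (of 96 each). The labels name no animal, so each group was 1 sample, no difference between groups has a replicate check and no p-value was computed. Strain and sort cannot be told apart in any comparison of a sort with the reference.

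The libraries held 13369 to 2186034 recovered fragments each. The median was 848317 in uninjured, 1136939 in 5 day and 1099222 in 14 day Neurog1 libraries, 501827 in engrafted and 1347934 in 14 day OMP libraries and 504103 in the reference. A library with 10 CPM or more of a gene counts as one in which the gene was found. Shares of libraries carry exact Clopper-Pearson 95% intervals, which cover counting error over libraries only and no variation between animals. PCR copies of a molecule were not marked. Beside a count of 0, the limit given is not the exact one but 3 divided by the number of libraries, which is slightly lower. Neurog1 was found in 50%, 37.5% and 48% of uninjured, 5 day and 14 day libraries of its sort and in none of the OMP libraries, and Omp was found in 75.9% of engrafted and 97.6% of 14 day OMP libraries. Of the 68 run 1 libraries, 9 had more than 10000 genes, and 4 pairs among these differed by about sampling noise (chi-square per degree of freedom 1.12 to 1.18, against a median of 306.8 over pairs of neighbouring libraries), so these may not be separate cells. They entered the reference as labelled and neither of the reference classes below.

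Reference libraries were clustered together with the sorted libraries without any of the enzymes or their 58 partner genes, and clusters were named from marker genes that include no enzyme of the set. The sustentacular-like class held 15 reference libraries (12 of run 1 and 3 of run 2) with all 8 markers (Sec14l3, Ermn, Krt8, Krt18, Hes1, Notch2, Sdc4 and Sox2), and the mature neuron-like class held 36 (27 of run 1 and 9 of run 2) in 2 clusters with 11 and 10 of 13 neuronal markers. Another 56 reference libraries lay in 2 clusters that carried 8 and 7 of the sustentacular markers but remained unnamed. Their leading genes included none of these and a marker of another type: Rgs5 (endothelial and pericyte) in the first and Lgr5 (globose basal) in the second. The classes were not free of each other's RNA: the 8 sustentacular markers summed to a mean CPM of 37002 in sustentacular-like and 2703 in neuron-like libraries, and the 13 neuronal markers to 2538 and 37330. Of the Bowman's gland markers, Sox10, Muc5ac and Bpifb1 were at 0 in both classes. The list of 6 summed to a median of 42.5 in sustentacular-like and 0 in neuron-like libraries. Its mean went the other way, at 42.3 and 104.5, and the highest neuron-like library was at 2920. The liver genes Alb, Apoa1 and Ttr were found in none.

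All but 19 of the members with a RefSeq position stand in 19 runs of neighbouring members on the RefSeq annotation, with at most 9 other coding genes between neighbours. On chromosome 5 a run of 13 begins with Ugt2b34 and ends with Ugt2a1, Ugt2a2, Sult1b1, Sult1d1 and Sult1e1. On chromosome 7 a run of 13 holds Cyp2s1, Cyp2a4, Cyp2g1, Cyp2a5 and Cyp2f2, and on chromosome 3 a run of 7 opens with Gstm5 and closes with Gstm2, Gstm1 and Gstm4. Within the first and the last of these runs lie 2 pairs of members, neither of them adjacent. Ugt2a2 and Sult1b1 stand between Ugt2a1 and Sult1d1, and Gstm7, Gstm6, Gstm3 and Gstm2 between Gstm5 and Gstm1. Both pairs were chosen after their values were seen. Their levels are set against each other below: Ugt2a1 and Sult1d1 between cell classes, and Gstm1 and Gstm5 among libraries with sustentacular markers. The 250 bases before their RefSeq transcription starts (build GRCm38.p6, 5′ to 3′) are shown for that reason, with searched motifs in capitals: GCGTG or its reverse complement CACGC, the core of the response element of the aryl hydrocarbon receptor; TGACNNNGC, the core of the antioxidant response element; and TTGGCA, a half-site of the NFI family, which was named in early work on olfactory genes.
Ugt2a1, chr5:87490872-87491121, minus strand: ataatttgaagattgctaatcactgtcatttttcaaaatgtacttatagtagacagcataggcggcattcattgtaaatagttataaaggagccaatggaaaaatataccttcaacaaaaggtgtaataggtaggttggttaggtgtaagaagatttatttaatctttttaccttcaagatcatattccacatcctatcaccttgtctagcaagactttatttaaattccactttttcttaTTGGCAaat
Sult1d1, chr5:87569007-87569256, minus strand: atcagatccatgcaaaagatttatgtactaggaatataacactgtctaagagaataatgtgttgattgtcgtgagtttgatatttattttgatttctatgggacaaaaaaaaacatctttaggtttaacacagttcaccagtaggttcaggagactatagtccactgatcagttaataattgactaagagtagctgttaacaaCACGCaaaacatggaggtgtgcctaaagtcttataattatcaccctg
Gstm1, chr3:108017974-108018223, minus strand: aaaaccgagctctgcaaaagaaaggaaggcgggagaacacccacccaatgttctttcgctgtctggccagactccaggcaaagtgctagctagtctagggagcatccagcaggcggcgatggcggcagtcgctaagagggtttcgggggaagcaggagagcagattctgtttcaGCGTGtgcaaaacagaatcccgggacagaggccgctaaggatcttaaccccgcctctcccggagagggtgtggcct
Gstm5, chr3:107895604-107895853, plus strand: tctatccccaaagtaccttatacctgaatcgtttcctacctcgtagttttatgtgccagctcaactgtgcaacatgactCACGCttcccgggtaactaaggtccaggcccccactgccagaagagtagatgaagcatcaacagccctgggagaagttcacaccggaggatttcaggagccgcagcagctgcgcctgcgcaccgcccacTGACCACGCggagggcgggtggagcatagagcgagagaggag

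The promoters of Ugt2a1 and Sult1d1 had GC contents of 30.8% and 34%, and those of Gstm1 and Gstm5 57.6% and 56.8%. The window of Ugt2a1 held TTGGCA once, that of Sult1d1 held CACGC once and that of Gstm1 held GCGTG once. Gstm5 had CACGC at 2 places, the second inside a match to TGACNNNGC. On both strands, GCGTG was present in 19 members (16.2% of those with a promoter in the table) and in 28.2% of 27025 mouse promoters, TGACNNNGC in 3 (2.56%) and 10.1%, and TTGGCA in 24 (20.5%) and 12.5%. The full NFI motif, TTGGC and GCCAA with 5 bases between them, was present in 1 member (0.855%) and in 0.0407% of all, and a motif of the EBF factors, TCCC and GGGA with 2 bases between them, in none and in 0.788%. A match describes letters in this window and is not a site of binding.

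Among reference libraries the enzymes were concentrated where the sustentacular markers were. They took 3.72%, 9.14% and 12.1% of a library's signal (lowest, median and highest) in sustentacular-like libraries, against 0.140%, 0.507% and 8.27% in neuron-like libraries, and 1 neuron-like library overlapped the sustentacular-like range. The unnamed libraries with sustentacular markers spanned both, at 0.339%, 2.19% and 14.1%. Of 39 members measured (mean CPM of 5 or more in either class), 32 were higher by 2-fold or more in sustentacular-like libraries and 7 were lower by as much. Over all 9430 genes measured, the shares past these limits were 34.8% higher and 39.6% lower. The median log2 ratio of mean CPM + 1 was 4.28 over the members and −0.19 over all genes. In run 2 and in run 1 taken alone, the median over the members was 4.14 and 4.23. In this and the other comparisons, ratios of genes with a mean near or below 1 CPM in either group depend on the added 1.

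**Figure D1:**
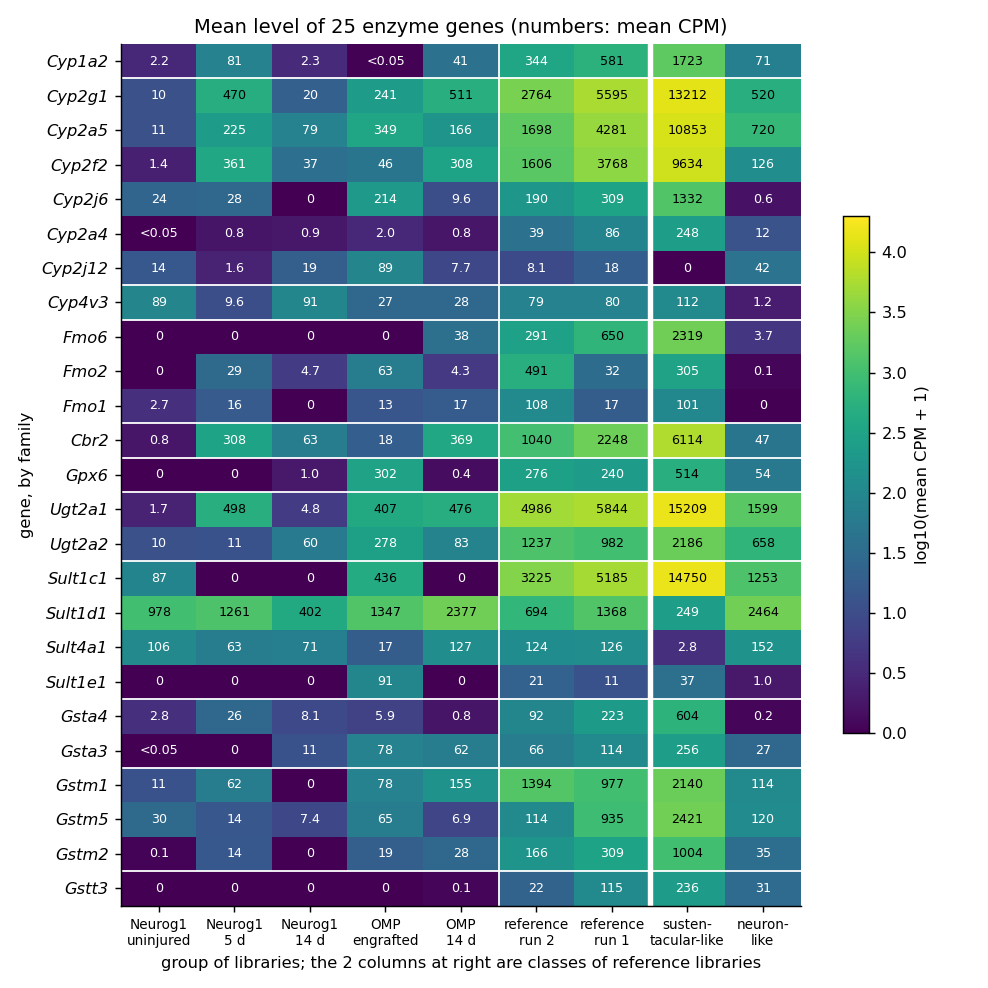
Mean CPM of the 25 named enzymes (rows) in the libraries of each sort, of each reference run and of the 2 reference classes (columns), coloured by log10 of mean CPM + 1. Bright cells are high levels and dark cells low ones. Most rows are brightest under the sustentacular-like class, while the Sult1d1 row is bright in all sorts and lower there, at a mean of 248.8 in sustentacular-like against 2464 in neuron-like libraries.

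Of the first-phase enzymes, 6 P450s, Fmo6 and Cbr2 were found in every sustentacular-like library. Cyp2g1, a P450 known from the nasal mucosa, ranged from 5509 to 22884 CPM with a median of 13168 in sustentacular-like libraries, and from 0 to 9150 with a median of 8.21 in neuron-like libraries, where it was found in 16 of 36. Cyp2a5, the mouse coumarin hydroxylase, had a median of 11941 (2225 to 16699) in sustentacular-like and 44.2 (0 to 5800) in neuron-like libraries. Cyp2f2, known for activating naphthalene in airway cells, had a median of 8177.5 (1830 to 19828) in sustentacular-like and 6.93 (0 to 1011) in neuron-like libraries. For Cyp2f2 the classes did not overlap, while for Cyp2g1 and Cyp2a5 the highest neuron-like library lay inside the sustentacular-like range. It was the same library for both genes, and its sustentacular markers (7326 CPM) summed to more than its neuronal markers (5066). The log2 ratios were 4.66 for Cyp2g1, 3.91 for Cyp2a5 and 6.25 for Cyp2f2.

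Cbr2, which reduces carbonyl groups, had a median of 6376 CPM (1636 to 11257) in sustentacular-like and 0.804 (0 to 491) in neuron-like libraries, without overlap, and a log2 ratio of 7.002. Cyp1a2, better known as an inducible P450 of the liver, was found in all 15 sustentacular-like libraries (237.5 to 4625 CPM) and in 7 of 36 neuron-like ones, and Cyp2j6, an arachidonate epoxygenase in other tissues, in all 15 (44.7 to 4217) and in 1 of 36. Its neuron-like mean was 0.622 CPM and its log2 ratio 9.68. The 3 monooxygenases differed in how many libraries carried them. Fmo6 was found in 15 of 15 sustentacular-like libraries, at 66.9 to 5627 CPM, and in 3 of 36 neuron-like ones. Fmo2 was found in 6 of 15 and 0 of 36 (a count of 0 allows up to 8.33%), and Fmo1 in 2 of 15 and 0 of 36. In the sustentacular-like class 2 libraries held 83.7% of the Fmo2 sum and the whole of the Fmo1 sum. The highest Cyp3 gene in the reference, Cyp3a13, averaged 2.67 CPM in sustentacular-like and 0.209 in neuron-like libraries, and the highest Cyp4 gene, Cyp4v3, was found in 7 of 15 and 1 of 36.

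Among the conjugating enzymes, Ugt2a1, the olfactory UDP-glucuronosyltransferase, had a median of 14312 CPM (6091 to 35863) in sustentacular-like and 0.290 (0 to 44339) in neuron-like libraries. Sult1c1, a cytosolic sulfotransferase, had a median of 15716 (1375 to 28071) in sustentacular-like and 15.8 (0 to 33953) in neuron-like libraries. The highest neuron-like value of both genes came from the same library. Without it the neuron-like mean of Ugt2a1 was 377.9 in place of 1599 CPM and that of Sult1c1 was 318.8 in place of 1253. Ugt2a2 averaged 2186 in sustentacular-like and 658 in neuron-like libraries. Ugt2a1 and Ugt2a2 are uncertain as separate genes, because 68.4% of the 50-base windows of Ugt2a1 transcripts occur in Ugt2a2 transcripts too. To a lesser degree the same holds for Cyp2a4, which shares 36.1% of its windows with Cyp2a5, and for Cyp2a5 (29.3%). This limit applies wherever these genes are named. The Ugt1a cluster was almost silent: its highest member in the reference, Ugt1a7c, averaged 0 CPM in sustentacular-like and 6.33 in neuron-like libraries, all of it from 1 neuron-like library.

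The glutathione S-transferases were less even. Gstm2 was found in all 15 sustentacular-like libraries (58.4 to 2533 CPM), and Gsta4, which conjugates aldehydes from lipid peroxidation, in 14 of 15 with a median of 336.1, against 0 of 36 neuron-like libraries. Gstm5 had a median of 2318 CPM (0 to 7653) in sustentacular-like libraries and 0 (0 to 3861) in neuron-like libraries, and was found in 13 of 15 and 5 of 36. Gstm1 had a median of 325.1 (0 to 14783) in sustentacular-like and 0 (0 to 1996) in neuron-like libraries, and was found in 10 of 15 and 9 of 36, with 72.9% of its sustentacular-like sum in 2 libraries. Both classes included libraries without these genes. Gpx6, a glutathione peroxidase known from olfactory tissue, was found in 5 of 15 sustentacular-like and 3 of 36 neuron-like libraries, with a median of 0 in both. Gstp1 averaged 36.8 CPM in sustentacular-like and 1.59 in neuron-like libraries, and Gsto1 was at 0 in both.

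**Figure D2:**
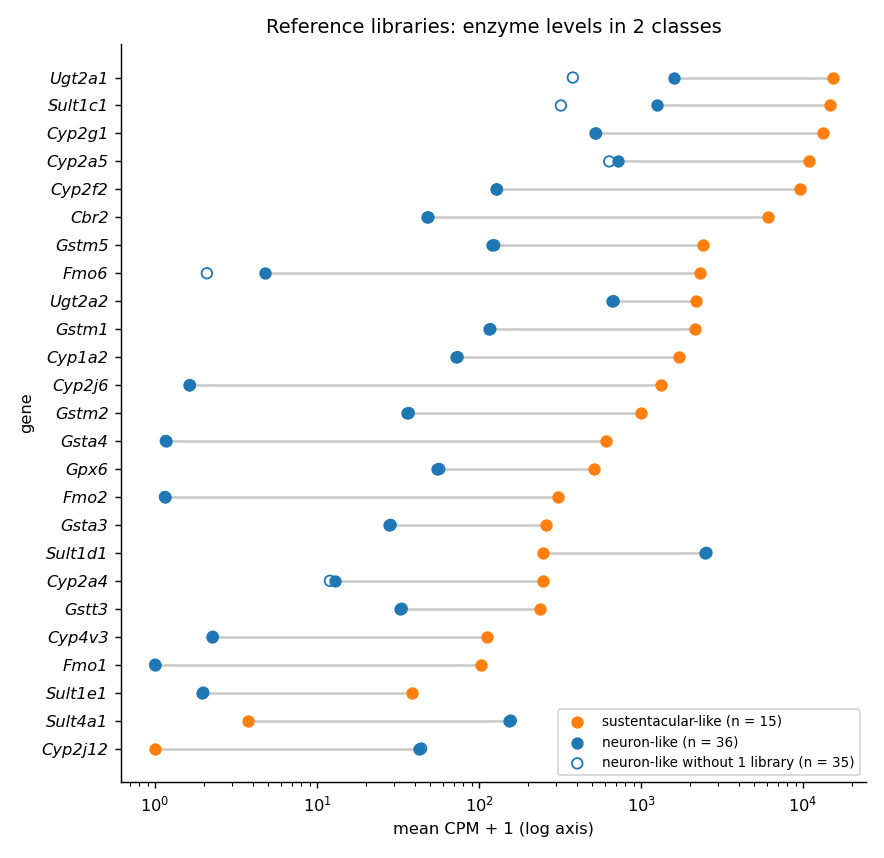
Mean CPM (log axis, CPM + 1) of the named enzymes in sustentacular-like libraries (n = 15), in neuron-like libraries (n = 36) and in the neuron-like libraries without the 1 with the highest enzyme sum (n = 35), 1 row per gene. The points of Ugt2a1 and Sult1c1 shift to 377.9 and 318.8 CPM without that library, while those of Cyp2g1 and Cbr2 hardly move. The highest Cyp2g1 of the class, at 9150 CPM, was in another library, which remains in. Sult1d1, Sult4a1 and Cyp2j12 were lower in sustentacular-like libraries.

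Levels of different genes were set side by side on the authors' FPKM values, which are per length. In sustentacular-like libraries the highest mean FPKM of the 25 named genes was that of Sult1c1 (11387; 1056 to 21942), followed by Cyp2g1 (7997; 3218 to 14026), Cbr2 (7886; 1978 to 14942), Cyp2a5 (7206; 1422 to 11166), Ugt2a1 (6314; 2530 to 14899) and Cyp2f2 (5967; 1116 to 12418). The ranges of all 6 overlap, so their order is not set by these libraries. Gstm5 (3673), Gstm1 (2006) and Fmo6 (1388) came next. In neuron-like libraries the highest mean FPKM was that of Sult1d1 (1122), which ranked 19 of 25 in sustentacular-like libraries (112.4).

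The 7 members lower by 2-fold or more in sustentacular-like libraries included a pair of sulfotransferases that were common in neuron-like libraries. Sult1d1, which sulfonates catecholamines, had a median of 78.96 CPM (0 to 917) in sustentacular-like and 2342 (0 to 8037) in neuron-like libraries, and was found in 12 of 15 and 35 of 36, with a log2 ratio of −3.30. The ranges overlapped below 917 CPM. Sult4a1, a sulfotransferase otherwise known from brain, was found in 1 of 15 sustentacular-like and 15 of 36 neuron-like libraries, at means of 2.76 and 152.4 CPM. With 16 clusters in place of 12 its log2 ratio turned to 0.11. Cyp2j12 was at 0 in sustentacular-like libraries. Its mean over all 36 neuron-like libraries was 41.7 CPM. It was found in 5 of them, and 2 held 68.6% of the sum.

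Sult1d1 was also found across the neuronal clusters of the whole series, though not in these alone. In clusters like immediate neuronal precursors its mean was 51.6 CPM (found in 4 of 9 libraries) and 594 (15 of 26). In the 3 clusters like immature neurons its means were 963 (31 of 40), 993 (20 of 25) and 2467 (45 of 47), and in the 2 clusters like mature neurons 1985 (27 of 27) and 2579 (20 of 22). The sorts fell differently into these clusters: of the 42 OMP libraries at 14 days, 25 were in the immature-like cluster at 2467 and 3 in the mature-like ones. By comparison the sustentacular-like cluster was at 233.3 (12 of 16).

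**Figure D3:**
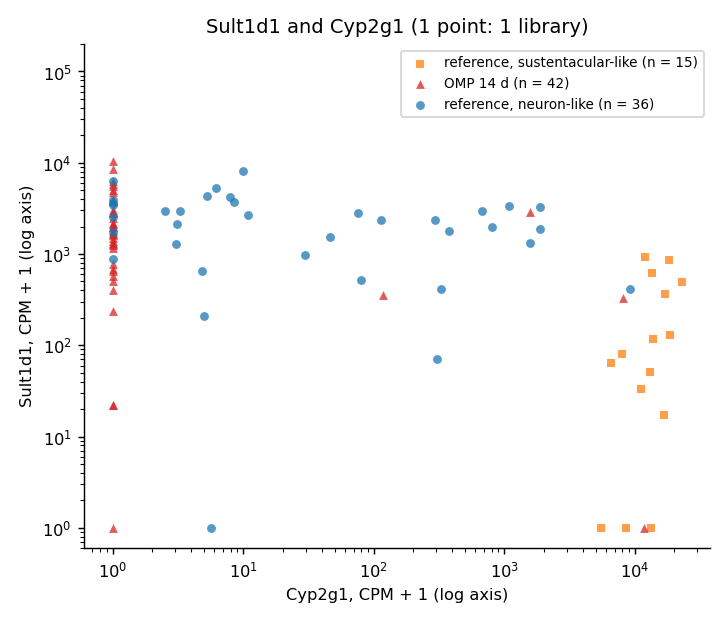
Sult1d1 (vertical) against Cyp2g1 (horizontal), CPM + 1 on log axes, 1 point per library, for sustentacular-like reference libraries (n = 15), OMP libraries at 14 days (n = 42) and neuron-like reference libraries (n = 36). Sustentacular-like libraries lie at the right, at 5509 CPM of Cyp2g1 or more, the OMP libraries stand mostly at 0 of Cyp2g1 and high Sult1d1, and the neuron-like libraries spread between.

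The partner genes that serve these enzymes followed them in part. Of 35 partner genes measured, 24 were higher in sustentacular-like libraries by 2-fold or more and 3 were lower, beside 34.8% and 39.6% of 9430 genes. The largest ratios among the higher ones belonged to Aldh1a1, an aldehyde dehydrogenase that rested on 1 library of 15, to Ces1d, a carboxylesterase (766 CPM in sustentacular-like against 9.73 in neuron-like libraries), and to Gpx1, a glutathione peroxidase (423.6 against 6.51). The 3 lower ones were Papss1, Nqo1 and Slc7a11, a cystine transporter. Nqo1, a quinone reductase also known as a marker of dorsal olfactory neurons, averaged 403.4 in sustentacular-like and 2405 in neuron-like libraries and was found in 14 of 15 and 27 of 36. Papss1 was found in 1 of 15 sustentacular-like and 2 of 36 neuron-like libraries, at means of 2.28 and 149.1 CPM, and without 1 neuron-like library at 5309 CPM the second mean was 1.64. Slc7a11 averaged 0.653 in sustentacular-like and 6.71 in neuron-like libraries. With 2000 or more genes per library the log2 ratios turned to 1.80 for Papss1 and 1.25 for Slc7a11, and with the unnamed clusters counted in, Slc7a11 turned to 0.28. In run 2 alone, Aldh1a1 turned to −0.83.

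Another 4 partners were singled out after their values were seen, for the step each serves. Por, the reductase that passes electrons to P450s, was found in 15 of 15 sustentacular-like libraries (52.6 to 4162 CPM, median 426.3) and in 9 of 36 neuron-like ones (0 to 275.4, median 0). Ugdh, which makes the sugar donor of the glucuronosyltransferases, was found in 15 of 15 (median 1007) and 11 of 36 (median 0). Papss2, which makes the sulfate donor of the sulfotransferases, was found in 15 of 15, at 2127 to 10331 CPM with a median of 4576, and in 15 of 36, at 0 to 6432 with a median of 0.711. Mgst1, a membrane-bound glutathione transferase, was found in 15 of 15 (median 3580) and 9 of 36 (median 0). The log2 ratios were 5.28, 2.93, 2.97 and 4.59.

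Enzyme RNA in the neuron-like libraries was widespread at low levels. Of the 36, 4 had none of the 6 enzymes Ugt2a1, Sult1c1, Cyp2g1, Cyp2a5, Cyp2f2 and Cbr2, and 3 had all 6, whereas all 15 sustentacular-like libraries and 44 of the 56 unnamed libraries with sustentacular markers had all 6. Cyp2g1 was found in 44.4% of neuron-like libraries (27.9 to 61.9, median depth 322357 fragments) and in 9.52% of OMP libraries at 14 days (2.66 to 22.6, median depth 1347934), the deeper ones. With every library thinned to 100000 fragments it was found in 23 of 34 neuron-like and 4 of 42 OMP libraries. As a share of the sustentacular-like mean, the neuron-like mean was not the same for every enzyme: 0.764% for Cbr2, 1.31% for Cyp2f2, 3.94% for Cyp2g1, 6.63% for Cyp2a5, 8.50% for Sult1c1 and 10.5% for Ugt2a1, and 0.0467% for Cyp2j6 and 0.162% for Fmo6. Without the neuron-like library with the highest sum, Sult1c1 stood at 2.16% and Ugt2a1 at 2.49%.

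That library, of run 1, held 41% of the summed enzyme signal of the class without Sult1d1 and Sult4a1. It carried Ugt2a1 at 44339 CPM and Sult1c1 at 33953 with Cyp2g1 at 304.6, Cyp2f2 at 55.4 and Cbr2 at 13.8. It had 72217 fragments, Omp at 49130 CPM, the highest of its class, and sustentacular markers summing to 48493. The next library held another 17.3%, with Cyp2g1 at 9150 CPM and Cyp2a5 at 5800, the highest of the class, and Omp at 654. Its sustentacular markers summed to 7326 CPM and its neuronal markers to 5066, the lowest of the class. What part these markers, and RNA of more than 1 cell, had in the enzyme levels of the class was not tested.

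**Figure D4:**
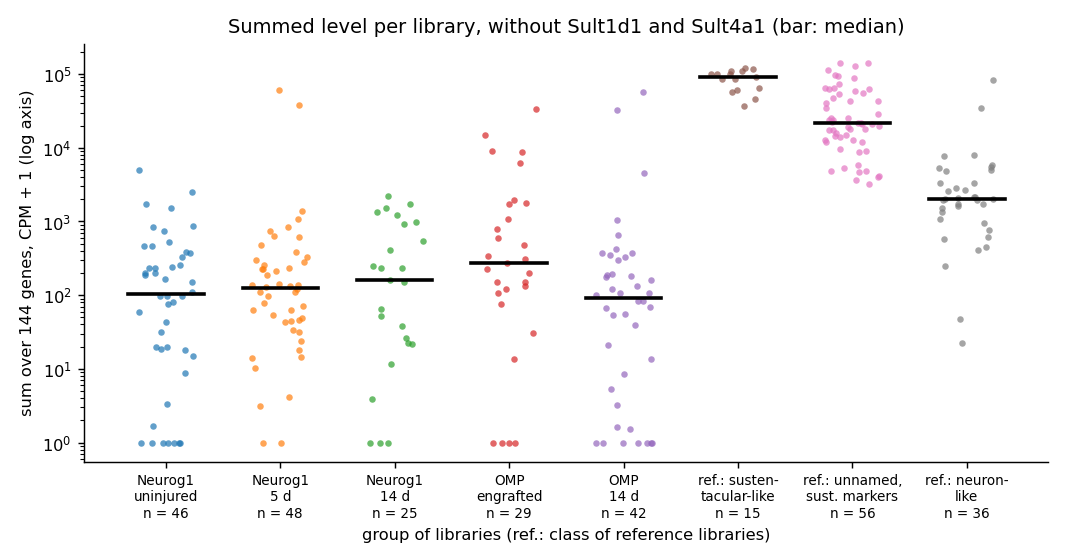
Summed CPM + 1 of all enzymes but Sult1d1 and Sult4a1 on a log axis, 1 point per library and a bar at the median. The sorts, the reference classes and the unnamed reference libraries with sustentacular markers are shown, and the remaining reference libraries are not. Medians lie at 91419 for sustentacular-like, 2021 for neuron-like and 91 to 269.02 CPM for the sorts, and single libraries of the 5 day Neurog1 and 14 day OMP sorts reach 60991 and 57428.

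In the Neurog1 sort of uninjured epithelium nearly all of the enzymes that were common in the reference were scarce. Of 43 members measured, 32 were lower than in the reference by 2-fold or more and 4 higher, beside 32.6% and 22.4% of 11061 genes. The members' median log2 ratio was −4.06 and that of all genes −0.16. Ugt2a1 averaged 1.71 CPM in Neurog1 libraries and 5409 in the reference, Cyp2f2 1.42 and 2671, and Cbr2 0.829 and 1635. Each was found in 1 or 2 of 46 Neurog1 libraries and in 73.9% to 78.99% of reference libraries. Fmo6 and Fmo2 were listed at 0 in the sort and averaged 467.9 and 264.9 in the reference. The Sult1c1 mean of 87.2 CPM in the sort came from 1 library.

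Sult1d1 and Sult4a1 did not share that difference. Sult1d1 averaged 978 CPM in uninjured Neurog1 libraries and 1026 in the reference, and was found in 80.4% and 86.2% of libraries. Sult4a1 averaged 106.02 and 125.2. The 2 sulfotransferases and the rest of their family made up 80.3% of the enzyme signal of the sort and 19.4% of that of the reference. The 4 members that were higher were of low level: Gsto2 (17.5 CPM in the sort against 0.406), Sult6b1 (14.2 against 1.02), Ugt1a6b (12.4 against 1.46) and Cyp2s1 (14.4 against 2.94). They were found in 2, 3, 3 and 4 of the 46 libraries. Of 39 partner genes, 24 were lower by 2-fold or more and 4 higher, beside 32.6% and 22.4% of 11061 genes. Mgst1 averaged 11.2 in the sort and 851 in the reference, Ces1d and Aldh1a7 were listed at 0 in the sort, and Nqo2 (41.1 against 0.803), Slc7a11 (66.7 against 8.73) and Tpmt (18.98 against 2.70) were higher in the sort. Slc7a11 was found in 41 of 46 libraries of the sort and in 14.5% of the reference, Nqo2 and Tpmt in 4 and 2 of the 46.

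After bulbectomy the Neurog1 sort held more enzyme RNA at 5 days, almost all of it in 2 libraries. Of 31 members measured between 5 days and uninjured, 15 were higher at 5 days by 2-fold or more and 8 lower, beside 20.9% and 26.3% of 10054 genes. Ugt2a1 averaged 498 CPM at 5 days and 1.71 uninjured, Cbr2 307.7 and 0.829, Cyp2f2 360.8 and 1.42, and Cyp2g1 470 and 10.5. Of the enzyme sum at 5 days without Sult1d1 and Sult4a1, 90.7% lay in 2 of 48 libraries. The first had sustentacular markers summing to 27686 CPM, Cyp2f2 at 15521, Cbr2 at 13249 and no Neurog1, Gap43 or Omp, and the second had markers summing to 11526 and Cyp2g1 at 14035. Without the 2 highest libraries of each group, 6 members were higher by 2-fold or more. The share over all genes was not counted in this setting. Cyp2f2 was then lower at 5 days (log2 ratio −1.12) and Cyp2g1 averaged 23.5 at 5 days. Cyp2g1 was found in 10 of 48 libraries at 5 days (20.8%, 10.5 to 34.99) and in 3 of 46 uninjured (6.52%, 1.37 to 17.9). The part of sustentacular RNA in these values was not tested.

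Both libraries at 5 days had 5 of the 6 leading enzymes, and in both the missing one was Sult1c1. Sult1c1 was at 0 in all 48 libraries at 5 days and in all 25 at 14 days, and such counts of 0 leave room for shares up to 6.25% and 12%. In the reference, 68 of the 71 libraries with sustentacular markers had both Ugt2a1 and Sult1c1. Of the uninjured libraries, of the same sort and strain, 1 had Sult1c1 at 4013 CPM. The libraries at 5 and 14 days differ from the reference in sort, strain and bulbectomy, and the part of each in this was not tested.

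At 14 days members of the Neurog1 sort went both ways, and their means summed to 959 CPM at 14 days and 1485 uninjured. Of 23 members measured, 7 were higher at 14 days by 2-fold or more and 8 lower, beside 22% and 29.9% of 9992 genes, and the members' median log2 ratio was 0.04. Cbr2 averaged 63.2 CPM at 14 days and 0.829 uninjured, with 91.03% of it in 2 libraries. Gsta3 averaged 11.1 at 14 days and 0.0181 uninjured, all of the 14 day mean from 1 library, and Cyp2j6 and Gsto2, at 24.3 and 17.5 uninjured from 1 and 2 libraries, were at 0 at 14 days. Sult1d1 averaged 978 uninjured, 1261 at 5 days and 401.9 at 14 days, with medians of 596, 661 and 206.2, and was found in 37 of 46, 33 of 48 and 17 of 25 libraries. The ranges of the 3 groups overlap from 0 to 2269 CPM. Among partner genes, 11 of 33 were higher by 2-fold or more and 4 lower at 5 days, beside 20.9% and 26.3% of 10054 genes. At 14 days 4 of 31 were higher and 11 lower, beside 22% and 29.9% of 9992 genes. At 5 days Ahr, the receptor for many inducers of Cyp1a2, averaged 421.1 CPM against 30.2 uninjured, but 1 library held 20160 and the mean of the others was 1.10, and Ephx1, a microsomal epoxide hydrolase, averaged 99.8 and 0.269 and was found in 4 of 48 libraries.

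In OMP libraries at 14 days after bulbectomy, set against neuron-like libraries of the unsorted reference, Sult1d1 (mean 2377 and 2464 CPM) and Sult4a1 were close in mean and the leading enzymes were found in fewer libraries. Of 33 members measured, 12 were higher in the sort by 2-fold or more and 14 lower, beside 36.9% and 26% of 9645 genes. Sult1d1 had a median of 1664 CPM (0 to 10402) in OMP and 2342 (0 to 8037) in neuron-like libraries, and was found in 40 of 42 and 35 of 36. Sult4a1 averaged 126.8 and 152.4, and was found in 29 of 42 and 15 of 36. Sult1c1 was at 0 in all 42 OMP libraries, which allows up to 7.14%, and averaged 1253 CPM in neuron-like libraries, where 18 of 36 had it. Of the 42, 35 had none of the 6 leading enzymes, against 4 of 36 neuron-like libraries. The sets also differed in cluster: 25 of the 42 lay in an immature-like cluster, 12 in an unnamed one, and 1 and 2 in the mature-like clusters. Omp averaged 967 CPM in those 25, against 9451 and 8357 in the reference libraries of the mature-like clusters. The part of maturation in the differences between the sets was not tested.

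As in the 5 day Neurog1 sort, 3 OMP libraries at 14 days had 5 of the 6 leading enzymes and lacked Sult1c1. They held 94.2% of the enzyme sum of the group without Sult1d1 and Sult4a1. The highest had Ugt2a1 at 16343 CPM, Cyp2g1 at 11659, sustentacular markers summing to 42128 and no Omp, the second had Cyp2g1 at 8113 with Omp at 3870, and the third had Cyp2g1 at 1577 with Omp at 951. The higher means of Cbr2 (368.7 against 46.7) and Cyp2f2 (308.2 against 125.9) came from these libraries: without the 2 highest of each group, the log2 ratios of OMP over neuron-like libraries turned to −2.04 and −4.20. Fmo1 (17.04 CPM in the sort, listed at 0 in neuron-like libraries) and Cyp4v3 (27.7 against 1.23) were found in 2 and 4 of the 42. Gpx6 averaged 0.400 in OMP and 54.2 in neuron-like libraries, and Gstt3 0.143 and 31.4, with 1 neuron-like library at 1124. The log2 ratio of Fmo1 turned to −1.73 with Leiden clusters and that of Gstt3 to 0.16 with 2000 or more genes per library. Of 33 partner genes, 7 were higher by 2-fold or more and 15 lower in the sort. Set against the neuron-like libraries of run 2 alone, 15 of 29 members were higher by as much and 7 lower, beside 49.9% and 20% of 9159 genes, and the members' median log2 ratio was 1.19 (all genes 0.99), where it was −0.26 (all genes 0.27) against both runs.

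Engrafted OMP libraries differed from those at 14 days after bulbectomy mainly in single libraries. Of 33 members measured, 13 were higher in engrafted libraries by 2-fold or more and 12 lower, beside 21.7% and 35% of 9623 genes, and the median log2 ratio was −0.35 over the members and −0.34 over all genes. Gpx6 averaged 302.2 CPM in engrafted and 0.400 in 14 day libraries, with 7442 in 1 library. Sult1c1 averaged 435.8 in engrafted libraries, mostly from 1 with 11380, and Sult1e1, the estrogen sulfotransferase, averaged 91.4 from 2 libraries, and both were listed at 0 at 14 days. The sustentacular markers, at a median sum of 0 CPM in engrafted libraries, summed to 4238 in the library highest in Sult1c1, which had no Omp, to 2438 and 6181 in those with Sult1e1 (Omp at 134.3 and 2.80), and to 2550 in that highest in Gpx6 (Omp at 143.1). The library highest in Gpx6 had 76858 fragments and neuronal markers summing to 6133 CPM. In that highest in Sult1c1 these summed to 9.46, and in those with Sult1e1 to 242.5 and 172.2. The part of either set of markers in these levels was not tested. Cbr2 averaged 18.3 in engrafted and 368.7 in 14 day libraries. Sult4a1 averaged 17.3 in engrafted and 126.8 in 14 day libraries and was found in 5 of 29 and 29 of 42, and Sult1d1 averaged 1347 and 2377 (21 of 29 and 40 of 42). The gene filter took 60 of the 89 engrafted libraries, and the median depth of the rest was lower. With 2000 or more genes per library, 5 members were higher by 2-fold or more, and the share over all genes was not counted. Aldh1a1, the highest partner ratio, was at 6290 CPM in 1 engrafted library.

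The 2 reference runs are the only groups that the labels give as repeats of a condition. Of 44 members measured, 7 were higher in run 2 than in run 1 by 2-fold or more and 19 lower, beside 19.3% and 37.9% of 10860 genes, and the median log2 ratio was −0.90 over the members and −0.51 over all genes. Fmo2 averaged 491 CPM in run 2 and 31.8 in run 1, found in 24 of 70 and 11 of 68, with 49.99% of the run 2 sum in 2 libraries. Fmo1 averaged 107.997 and 17.5. In the other direction, Gstm5 averaged 114.4 in run 2 and 935 in run 1 (24 of 70 and 34 of 68), Gstt3 22.2 and 114.7 (log2 ratio 0.14 with no filter on genes per library), and Gsta2 6.63 and 32.2. Gstm1 averaged 1394 and 977 and was found in 50 of 70 and 31 of 68. The makeup of the runs differed: of the 71 libraries with sustentacular markers 48 were of run 2 and 23 of run 1, and of the 36 neuron-like ones 9 and 27. The median enzyme share of a library was 1.42% in run 2 and 0.752% in run 1, and the mean 2.13% and 3.44%. Among partners, Ahr (200 against 21.01) and Aldh1a7 (399.4 against 75.99) were higher in run 2, and Cebpb (0.568 against 13.8) and Papss1 (13.3 against 90.8) were lower. Ahr was found in 9 of 70 and 12 of 68 libraries, and without 1 run 1 library at 5309 CPM the run 1 mean of Papss1 was 12.9.

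Within the 71 reference libraries with sustentacular markers the leading P450s were positively correlated and the 2 main mu-class transferases negatively. Spearman correlations, given as descriptions over libraries that share runs and depth, were 0.88 for Cyp2g1 with Cyp2a5, 0.87 for Cyp2a5 with Cyp2f2 and 0.84 for Cyp2f2 with Cbr2 (n = 71). These were lower within runs, at 0.77, 0.74 and 0.74 in run 2 (n = 48) and 0.65, 0.61 and 0.68 in run 1 (n = 23), and within the 15 sustentacular-like libraries they were 0.625, 0.56 and 0.55. Gstm1 and Gstm5 had −0.45 over the 71, −0.36 in run 2 (n = 48) and −0.57 in run 1 (n = 23). Both were found in 24 libraries, Gstm1 alone in 29, Gstm5 alone in 14 and neither in 4. At 100 CPM or more of one and under 10 of the other, 27 libraries had Gstm1 (21 of run 2 and 6 of run 1) and 13 had Gstm5 (5 of run 2 and 8 of run 1), while 16 had both at 100 or more. The median depths of these sets were 463220, 589024 and 673516 fragments. No 50-base window of the Gstm5 transcripts occurs in another member, and 9.36% of those of Gstm1 do, mostly in Gstm3.

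Other genes sided with 1 of the pair. With Gstm5 went Sult1c1 (Spearman 0.78), Fmo6 (0.61) and the partner Mgst1 (0.56), and against it Aldh1a7 (−0.50) and Aldh1a1 (−0.44), which oxidise aldehydes. With Gstm1 went Fmo2 (0.55), Aldh1a7 (0.46) and Gpx6 (0.43), and against it Sult1c1 (−0.32). Among the genes of the set, Fmo2 was the one highest with Gstm1 and Sult1c1 the one highest with Gstm5. Correlations were computed for every pair of 23 enzymes, and no p-value was given to any. The sides followed the runs: the means of Gstm1, Fmo2, Gpx6 and Aldh1a7 were higher in run 2, and those of Gstm5, Sult1c1 and Fmo6 lower. Within each run the sign of the Gstm1 to Gstm5 correlation was the same. With Gstm5, Sult1c1 had 0.78 in run 1 and 0.71 in run 2, and Fmo6 0.49 and 0.48. With Gstm1, Fmo2 had 0.70 and 0.50, Gpx6 0.59 and 0.33, and Sult1c1 −0.44 and −0.28. Correlations with Mgst1, Aldh1a7 and Aldh1a1 were computed over both runs together only, and the part of the runs in them was not tested.

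**Figure D5:**
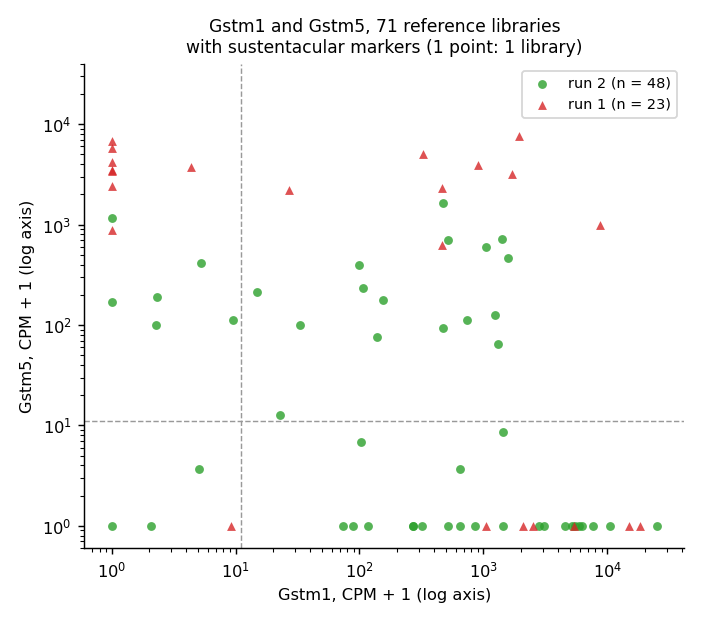
Gstm5 (vertical) against Gstm1 (horizontal), CPM + 1 on log axes, in the 71 reference libraries with sustentacular markers, by run. Dashed lines mark 10 CPM, the limit of a gene found. Libraries gather along both axes, with 29 that had Gstm1 alone and 14 that had Gstm5 alone, and 24 with both stand at the upper right.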

How the data were processed

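The authors deposited 2 tables with a column for each of 469 libraries. In the first deposited table the signal of a gene is an estimate of its fragments, scaled by the authors to nearly equal sums per library (483147 to 651792); 99.0% of its nonzero values are not whole. In the second the authors gave FPKM. STAR 2.5.2a, Cufflinks 2.2.1, Cuffnorm, FastQC and build mm9 stand in the submitters' processing notes; their roles and the annotation are not given in the sources used here. No column was without a sample.

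From the signal, 27 entries with date-like names (0.418% of the signal) were left out and CPM computed. Libraries with 1000 or more genes at a value of 1 or more were kept (328; 141 left out). Fragments were recovered as multiples of a library's smallest step (tolerance 0.02; a median of 98.2% and at least 96.5% of values were whole multiples; the value of 1 fragment had a median of 1.41 and reached 74.8 CPM), which limits what a CPM of 10 can show in shallow libraries. The planned tests had assumed no replicate, and none was made. No doublet caller was run. Clusters came from log2(CPM + 1) of 2000 variable genes, 20 principal components and Ward linkage into 12; a name needed 3 or more markers and leading genes that did not go against it. Ratios are log2 of mean CPM + 1 and understate low genes. The ratio and step procedures were tested on simulated data.

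Named were members that averaged at least 50 CPM in a group, the highest of each family in the reference, up to 12 each way per comparison at a mean of 10 or more, and the 3 highest and 3 lowest partner genes. Not every gene under the rule is printed. The members and lists were chosen with earlier results of these data known, and Sult1d1 and Sult4a1 were set apart in sums after their levels were seen. Promoters and transcripts came from RefSeq and GENCODE tables: 142 of 146 members matched by symbol and 117 had a promoter. Library pairs were compared for repeated cells; no columns were identical. Among libraries with at most 10000 genes, libraries 90 and 91 (correlation 0.994) and 74 and 76 (0.960) at 5 days were close. So were libraries 340 and 341 of run 1 (0.943), while other such pairs reached at most 0.652. Their chi-square per degree of freedom was 6.18, 160.7 and 80.1. Whether these are separate cells was not tested. Alternatives covered the filters, detection limit, pseudocount, pooling, FPKM table, clusters, runs, depth and carrying libraries. Python 3.11.15, numpy 2.4.6, pandas 2.3.3, scipy 1.17.1, scikit-learn 1.9.0 and matplotlib 3.10.9 were used.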

Additional observations from a re-analysis of the deposited data

Results flagged for a closer look

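Gstm4 differed between reference runs in the ratio of sustentacular-like over neuron-like libraries, by 4.89 on the log2 scale (3.20 in run 2 and −1.69 in run 1), with the runs moving in opposite directions. The neuron-like mean of Gstm4 rested on 2 libraries of run 1, and since it was listed at 0 in the neuron-like libraries of run 2, the run 2 ratio depends on the added 1.

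Against uninjured Neurog1 libraries, Gstm1 was higher at 5 days (log2 ratio 2.40) and lower at 14 days (−3.58), a difference of −5.98 for 14 days minus 5 days. It was found in 5 of 46 uninjured libraries, in 2 of 48 at 5 days and in none of 25 at 14 days, where it was at 0. The 2 libraries at 5 days, at 2617 and 357.2 CPM, are the ones with sustentacular markers summing to 27686 and 11526, and the others at 5 days were at 0. Sult2b1 went the other way, at −1.95 at 5 days and 1.22 at 14 days, a difference of 3.17. These 3 differences were not tested.

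Among the 54 reference libraries left out for few genes, which enter no comparison, Cyp2g1 was found in 77.8% (64.4 to 87.96), against 75.4% of those kept. Their median number of genes was 717.5.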

How the results depend on the processing

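The count of enzymes higher by 2-fold or more in sustentacular-like than in neuron-like libraries was 32 to 38 under every alternative, and the count lower in the uninjured Neurog1 sort than in the reference 28 to 40. Shares over all genes were not counted under alternatives, other than for a run taken alone. Of the values for whole comparisons under alternatives, 93.9% stayed within their limits and 7 moved. Without the 2 libraries of each group with the highest enzyme sum, 6 members in place of 15 were higher by 2-fold or more at 5 days. Against reference run 2 alone, 7 in place of 14 were lower in OMP libraries at 14 days and 15 in place of 12 higher. With 2000 or more genes per library, 5 in place of 13 were higher in engrafted libraries. Between runs, 11 in place of 7 were higher in run 2 with no filter on low levels and 4 with a pseudocount of 10. Cyp2g1 was found in 80.6% of neuron-like libraries at a CPM of 1 and in 67.6% after thinning, in place of 44.4%.

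Of single genes, 78.6% of values stayed within their limits, 19.7% moved and 22 reversed. For sustentacular-like over neuron-like libraries, the log2 ratio turned to 0.11 for Sult4a1 with 16 clusters, to −0.83 for Aldh1a1 in run 2 alone, to 1.80 for Papss1 and 1.25 for Slc7a11 with 2000 or more genes, and to 0.28 for Slc7a11 with the unnamed clusters counted in. At 5 days, Cyp2f2 turned to −1.12 without the 2 highest libraries and Ahr to −3.88 without the second library of each closely similar pair. For OMP at 14 days over neuron-like libraries, Fmo1 turned to −1.73 with Leiden clusters and −1.96 with members among the clustering genes. Cbr2 turned to −2.01 with 2000 or more genes and −2.04 without the 2 highest libraries. Cyp2f2 turned to −4.23 and −4.20 in the same settings, and to −0.41, −0.53 and −0.47 with 8 clusters, Leiden clusters and members among the clustering genes. Gstt3 turned to 0.16 with 2000 or more genes and 0.00041 with members among the clustering genes. With no filter on genes, Cyp1a2 turned to 0.42 in engrafted over 14 day OMP libraries, and Cyp2c44, Cyp3a13 and Gstt3 to −2.94, −2.83 and 0.14 in run 2 over run 1. Unless the setting itself removes the libraries that carry the value, the cause was not tested. The alternatives on the neuron-like library with the highest sum, the unnamed clusters and similar pairs were added after seeing the data. No paired analysis was possible because each group is 1 sample and library numbers pair no samples; for the same reason no replicate could be left out. At the median depths, a share of 0 in 15 libraries allows 20% by 3 divided by 15.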
